A study of Mus musculus with 6 samples.

Results

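The translation initiation factor genes were the autosomal protein-coding genes of the deposited table whose symbol begins with Eif and a digit, with 1 kinase gene left out by the rule. This gave 51 of the 54532 genes in the table. They were followed in mouse pancreatic islet RNA labelled as beta cells, in 3 libraries of a Bcas2 conditional knockout (genotype Cko, called Bcas2 cKO here) and 3 control libraries whose genotype is labelled wt. The study's design text calls the manipulation a knockdown of Bcas2 in beta cells, and its title ties BCAS2, a subunit of the Prp19 complex of the spliceosome, to insulin synthesis and secretion by way of splicing. No source used here gives the Cre driver, which part of the gene was deleted, the age of the mice or whether animals were pooled. The table numbers the Bcas2 cKO libraries 3, 4 and 5 and the control libraries 1, 3 and 4, whereas the labels number the Bcas2 cKO samples 1, 3 and 4, so Bcas2 cKO library 5 is known by its group only.

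Initiation factors bring the small ribosomal subunit, the initiator tRNA and the mRNA together at a start codon. eIF4E binds the cap, eIF4G is the scaffold, and eIF4A is the DEAD-box helicase that unwinds the leader; together they form eIF4F. The 4E-binding proteins (4E-BPs) compete with eIF4G for eIF4E until mTOR phosphorylates them, and eIF2, recharged by eIF2B and inhibited by the eIF2 alpha kinases, delivers the initiator tRNA. Beta cells make proinsulin at a high rate and raise its translation when glucose rises.

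The libraries held 16351800 to 16904326 reads on genes in Bcas2 cKO and 15170439 to 15594871 in control. Values are FPKM, reads scaled to gene length and to library depth as the authors set it, so levels of different genes can be compared per length. Bcas2 (ENSMUSG00000005687) was 8.77 ± 0.370 FPKM in Bcas2 cKO and 12.2 ± 2.51 FPKM in control (SD, n = 3 each), without overlap but also without a call (log2 fold change -0.42, limma adjusted p 0.083, 2-sided exact permutation p 0.1, the smallest that 3 against 3 allow). Ins1, Ins2 and Iapp were the most abundant of 10 beta cell markers in every library, none of which was at 0. The markers summed to 108887 to 128742 FPKM in Bcas2 cKO and 166105 to 265527 FPKM in control. Ins1, Ins2 and Iapp made up most of these sums. Each was lower in every Bcas2 cKO library than in any control library, but none of them was called (limma adjusted p 0.44, 0.38 and 0.059). The 20 acinar markers summed to 13116 to 40596 FPKM in Bcas2 cKO and 4491 to 10621 FPKM in control. The 18 immediate early and handling response genes summed to 5481 to 6922 FPKM in Bcas2 cKO and 880 to 2391 FPKM in control. Nothing in the labels ties each library to its own animal; the p-values therefore rest on library-to-library spread alone, part or all of which may be technical.

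A few initiation factor genes changed, and the rest did not pass the test. Eif4a1, Eif4e2 and Eif6 rose and Eif4ebp2 fell in Bcas2 cKO, by less than 2-fold each. These are 4 of the 50 members that reached a mean of 1 FPKM and were tested, or 8%, where 14.5% of all 13723 tested genes were called (limma on log2(FPKM + 1), Benjamini-Hochberg adjusted p under 0.05), so the count of calls is not above that background. The 3 rises compare with 6.97% of all tested genes called higher and the 1 fall with 7.55% called lower. The median log2 fold change was -0.01 over the tested members and -0.03 over all tested genes. Of the members 80% lay within 0.25 of 0 on the log2 scale, and of all tested genes 61.2%. The groups did not overlap for 5 members that were higher and 6 that were lower in Bcas2 cKO, 10% and 12% of those tested, against 16.8% and 21.1% of all tested genes. Because these are bulk libraries, fewer cells of a type and less RNA per cell cannot be told apart.

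**Figure D1:**
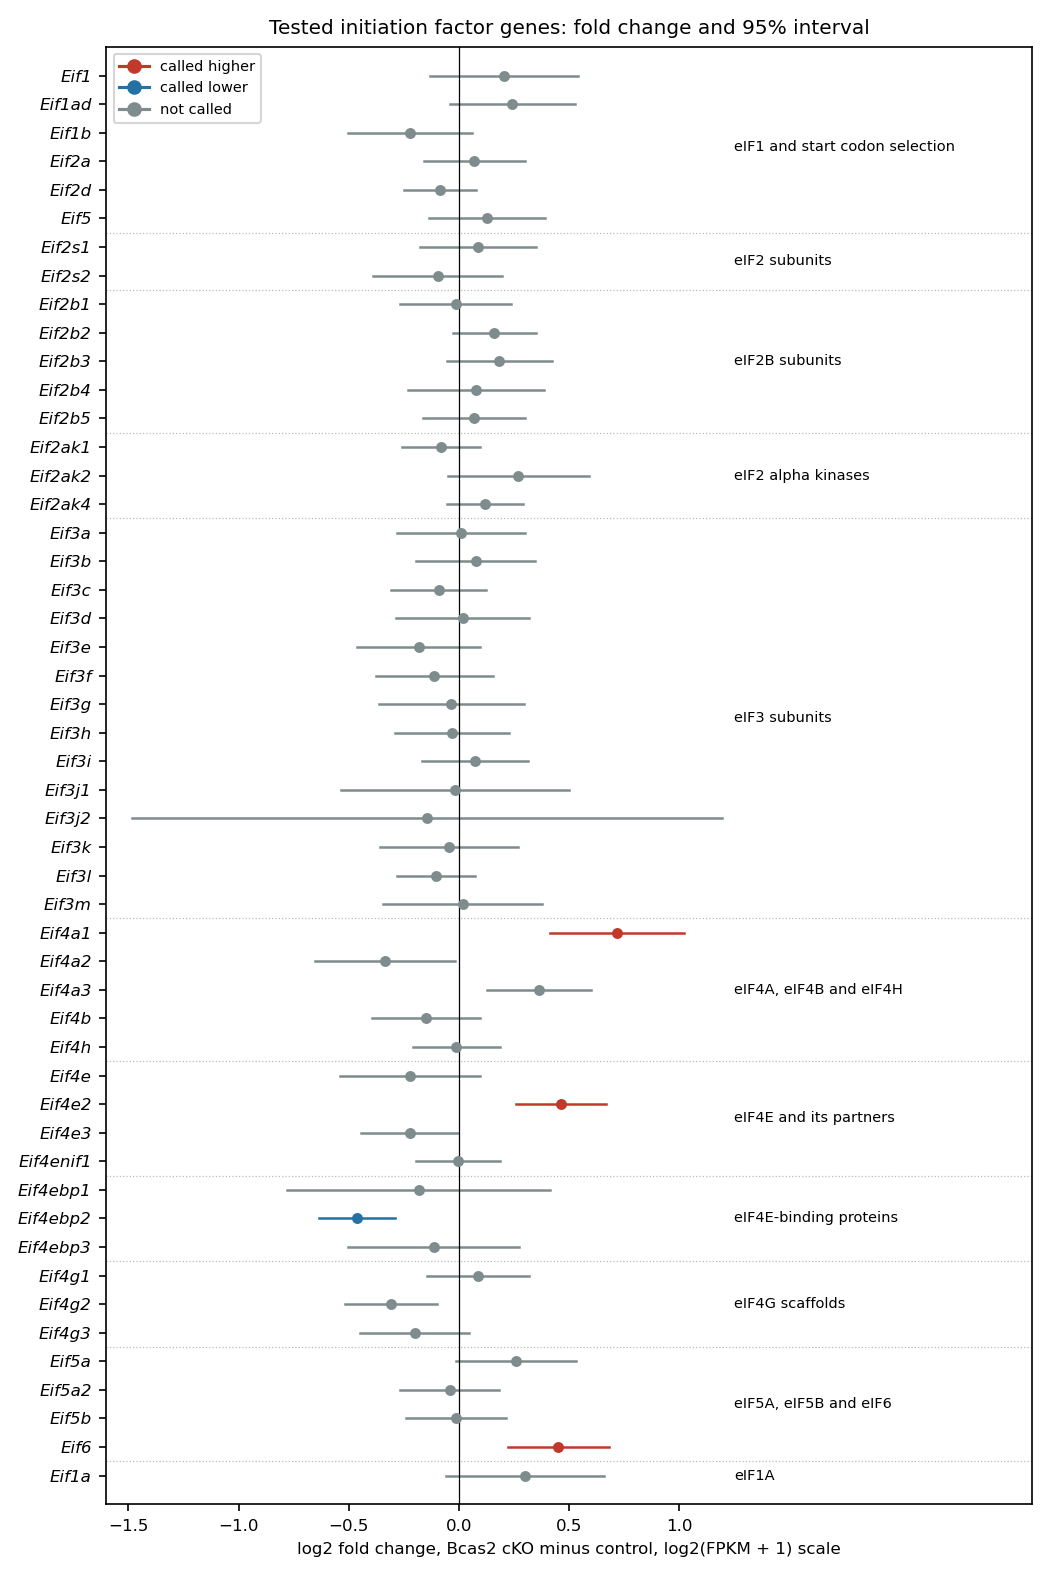
Log2 fold change (Bcas2 cKO minus control, log2(FPKM + 1) scale, x axis) with its 95% interval for the 50 tested initiation factor genes, grouped by role from top to bottom. Eif4a1, Eif4e2 and Eif6 lie to the right of 0 and Eif4ebp2 to the left, the other 46 were not called, and the widest interval belongs to Eif3j2.

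Eif4a1 and Eif4a2 encode closely related eIF4A helicases of eIF4F, and of these Eif4a1 rose while Eif4a2, with lower values in Bcas2 cKO, was not called. The stretches of coding sequence around the DEAD box, the helicase motif that names the family, are shown because reads can be assigned to one paralog or another only by bases such as those that differ here. They are 84 bases each from GENCODE M21 transcripts (GRCm38), 5′ to 3′, with bases that differ from Eif4a1 in capitals:
Eif4a1: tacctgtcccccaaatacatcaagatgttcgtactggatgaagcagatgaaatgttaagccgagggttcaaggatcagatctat
Eif4a2: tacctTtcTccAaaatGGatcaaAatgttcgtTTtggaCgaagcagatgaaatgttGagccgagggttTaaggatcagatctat
Eif4a3: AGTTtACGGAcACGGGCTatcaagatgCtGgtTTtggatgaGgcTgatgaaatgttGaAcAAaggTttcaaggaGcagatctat
Over this stretch Eif4a2 differed from Eif4a1 at 11 bases (86.9% identical) and Eif4a3, which encodes a subunit of the exon junction complex that is laid down on mRNA by splicing, at 28 bases (66.7% identical).

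Eif4a1 (ENSMUSG00000059796, chromosome 11, 69666936 to 69672423, minus strand, GRCm38) was at 66.1, 75.2 and 66.3 FPKM in Bcas2 cKO libraries 3, 4 and 5, against 35.3, 48.5 and 42.1 FPKM in control libraries 1, 3 and 4. Every Bcas2 cKO library lay above every control library. This was the largest change among the tested members, a log2 fold change of 0.72 (SE 0.13; limma adjusted p 0.015). The adjusted p was 0.055 without Bcas2 cKO library 4 and 0.054 without control library 4, so 2 of the 6 fits with a library removed lost the call.

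Eif4a2 (ENSMUSG00000022884, chromosome 16, 23107444 to 23114136, plus strand) was at 98.3, 108.8 and 109.7 FPKM in Bcas2 cKO libraries 3, 4 and 5, against 112.1, 155.9 and 135.5 FPKM in control libraries 1, 3 and 4. The groups did not overlap, but the lowest control library lay close to the Bcas2 cKO libraries. The log2 fold change of -0.33 (SE 0.13) did not pass the test (limma adjusted p 0.14); it passed with quantile normalization (0.020) and without control library 1 (0.045). The ratio of Eif4a1 to Eif4a2 FPKM within a library does not depend on scaling between libraries. It was 0.672, 0.691 and 0.604 in Bcas2 cKO and 0.315, 0.311 and 0.311 in control, a mean of 0.656 ± 0.046 against 0.312 ± 0.0022 (SD, n = 3 each). The ratio was nearly the same in the 3 control libraries, and 2.1 times as high in Bcas2 cKO. Because Eif4a1 was higher and Eif4a2 lower in every Bcas2 cKO library, this ratio had to differ without overlap. Its separation therefore adds no further support to the values of the 2 genes. The summed FPKM of both genes was 174.8 ± 9.86 in Bcas2 cKO and 176.5 ± 28.5 in control (SD, n = 3 each), a difference smaller than the spread of the control libraries. Of 6 pairs set side by side after their values were seen, none of them tested, the groups were apart for 4 and overlapped for Eif4ebp2/Eif4e (1.64 ± 0.256 in Bcas2 cKO and 1.93 ± 0.241 in control) and for Eif5a/Eif5a2 (34.9 ± 6.48 in Bcas2 cKO and 27.8 ± 2.92 in control; SD, n = 3 each).

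**Figure D2:**
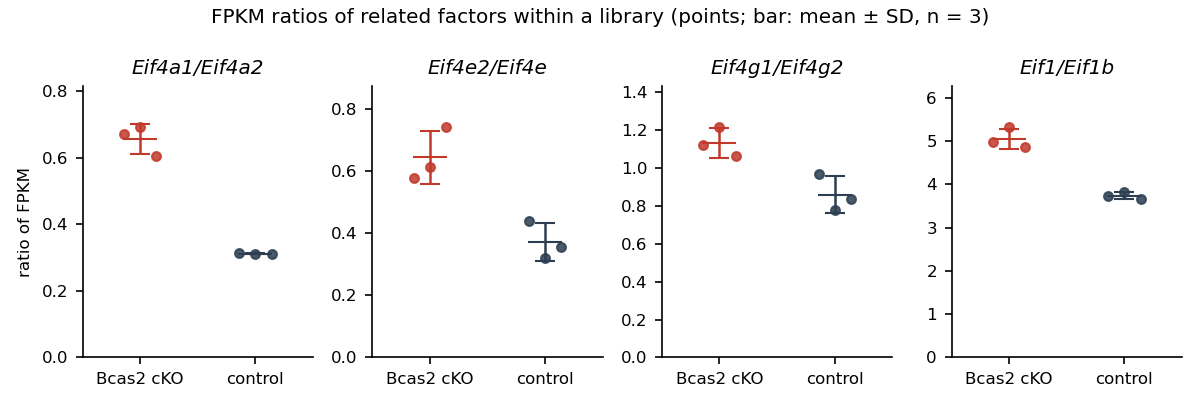
Ratio of FPKM of 2 related initiation factor genes within each library (points), Bcas2 cKO left and control right, with mean ± SD (n = 3 each) as bars and a linear axis from 0. The control libraries sit at 0.311 to 0.315 for Eif4a1/Eif4a2 and the Bcas2 cKO libraries at 0.604 to 0.691; the groups are also apart for Eif4e2/Eif4e, Eif4g1/Eif4g2 and Eif1/Eif1b.

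Eif4a1 has copies and passengers that bear on its reads. Of the 50-base words in its GENCODE M21 transcripts 28.4% occur in transcripts of another gene, most of them (24.2% of all) in the processed pseudogene Eif4a-ps4, and Eif4a2 was not among its 5 largest partners. Eif4a-ps4 held 30.8 ± 3.91 FPKM in Bcas2 cKO and 23.6 ± 2.11 FPKM in control (SD, n = 3 each) and was not called (log2 fold change 0.36, limma adjusted p 0.079), so the division of reads between gene and pseudogene is uncertain. In reads Eif4a-ps4 held 679, 744 and 565 in Bcas2 cKO and 503, 363 and 408 in control. Eif4a1 held 5197, 5738 and 4955 reads in Bcas2 cKO and 2426, 2840 and 2679 in control. For Eif4a2 the shared part was 13.6%. The processed pseudogene Gm2999, which shares 3.95% of the words of Eif4a2, rose to 14.7 ± 2.36 FPKM in Bcas2 cKO, against 6.69 ± 1.44 FPKM in control (limma adjusted p 0.010). The snoRNA gene Gm25835, which lies inside Eif4a1 on the same strand, held 36, 48 and 34 reads in Bcas2 cKO and 6, 11 and 13 reads in control and was called higher as well (limma adjusted p 0.014). These genes were chosen after their values were seen.

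The other genes of the helicase group were not called. Eif4a3 was at 32.8, 35.2 and 33.4 FPKM in Bcas2 cKO and 23.7, 29.8 and 25.0 FPKM in control, without overlap. Its log2 fold change of 0.36 (SE 0.10) missed the threshold with a limma adjusted p of 0.055. Eif4b and Eif4h, which stimulate the helicase, had log2 fold changes of -0.15 and -0.01, and their groups overlapped.

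**Figure D3:**
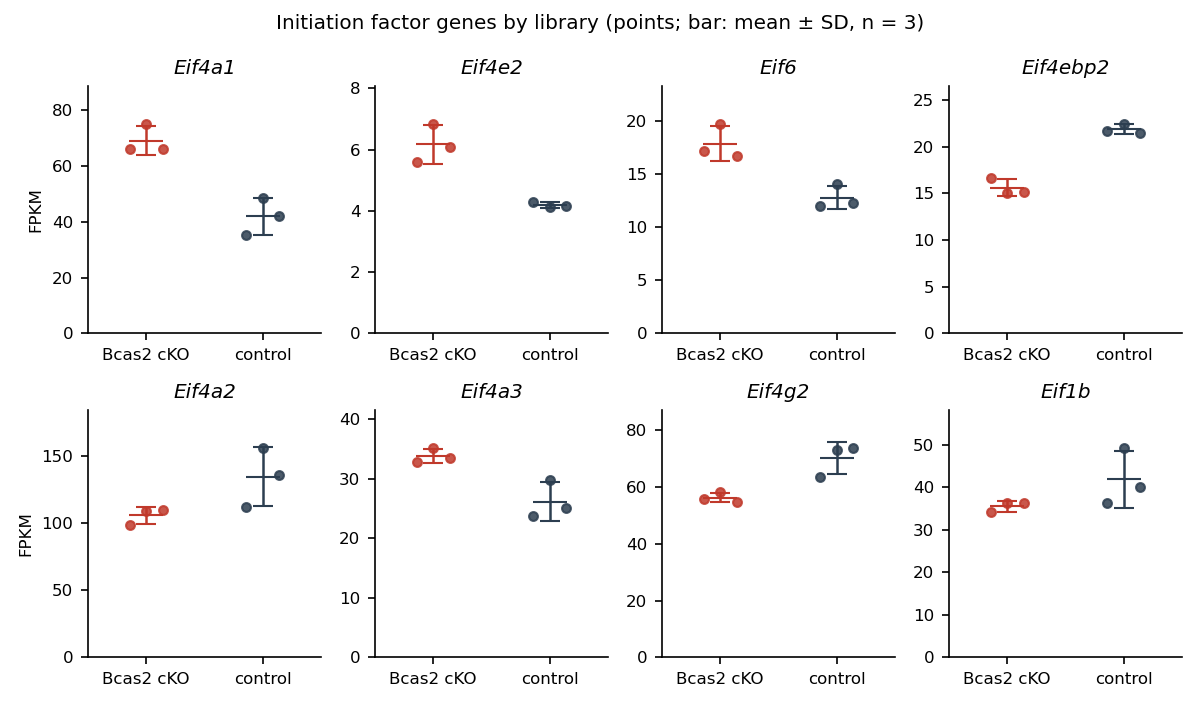
FPKM of 8 initiation factor genes in each library (points), Bcas2 cKO left and control right, with mean ± SD (n = 3 each) as bars; every axis is linear from 0. Eif4a1, Eif4e2, Eif6 and Eif4a3 are higher in all 3 Bcas2 cKO libraries, and Eif4ebp2, Eif4a2, Eif4g2 and Eif1b are lower in all 3, Eif1b by the smallest margin.

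Among cap-binding proteins it was Eif4e2 that rose. Eif4e2 encodes 4EHP, which binds the cap without recruiting eIF4G and acts in repression of mRNAs together with GIGYF proteins. Eif4e2 (ENSMUSG00000026254, chromosome 1, 87213914 to 87240488, plus strand) was at 5.60, 6.84 and 6.07 FPKM in Bcas2 cKO libraries 3, 4 and 5, against 4.30, 4.11 and 4.15 FPKM in control libraries 1, 3 and 4. The control libraries lay close together and below every Bcas2 cKO library, with a log2 fold change of 0.46 (SE 0.09, limma adjusted p 0.017). The adjusted p was 0.052 without Bcas2 cKO library 4, 0.057 without Bcas2 cKO library 5 and 0.060 without control library 4.

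Eif4e, the cap-binding subunit of eIF4F, was at 9.69, 11.1 and 8.19 FPKM in Bcas2 cKO and 9.81, 12.8 and 11.6 FPKM in control. The groups overlapped, and its log2 fold change of -0.22 had a 95% interval of -0.54 to 0.09 (limma adjusted p 0.30). The within-library ratio of Eif4e2 to Eif4e was 0.644 ± 0.086 in Bcas2 cKO and 0.372 ± 0.060 in control (SD, n = 3 each; not tested). Eif4e3, another cap-binding paralog, was at 9.36 ± 0.778 FPKM in Bcas2 cKO and 11.1 ± 0.974 FPKM in control and was not called (limma adjusted p 0.15). Eif4enif1, which encodes the eIF4E transporter 4E-T, had a log2 fold change of -0.003. Eif4e1b, the germline paralog, had 1 read in Bcas2 cKO library 4 and 0 in the other libraries; it was the member left out of the test, and no fold is given.

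Eif4ebp2 encodes the 4E-BP that was highest of the 3 in these islets, and it fell. The coding stretch around its eIF4E-binding site is shown beside that of Eif4ebp1 because this is the shared element by which 4E-BPs hold eIF4E; both are 81 bases from GENCODE M21 transcripts, 5′ to 3′, with bases that differ from Eif4ebp2 in capitals:
Eif4ebp2: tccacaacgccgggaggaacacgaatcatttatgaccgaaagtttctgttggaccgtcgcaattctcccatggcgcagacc
Eif4ebp1: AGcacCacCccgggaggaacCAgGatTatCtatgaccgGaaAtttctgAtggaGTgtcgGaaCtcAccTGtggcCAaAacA
The stretches differed at 23 bases and were 71.6% identical. No 50-base word of Eif4ebp2 occurred in transcripts of another gene.

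Eif4ebp2 (ENSMUSG00000020091, chromosome 10, 61428491 to 61452661, minus strand) was at 16.6, 15.1 and 15.1 FPKM in Bcas2 cKO libraries 3, 4 and 5, against 21.6, 22.5 and 21.5 FPKM in control libraries 1, 3 and 4. The groups were far apart relative to their spread. Its log2 fold change of -0.46 (SE 0.07) had a limma adjusted p of 0.011, the smallest among the members. It was the member whose call was kept in each of the 6 fits with a library removed (limma adjusted p 0.023 to 0.043). Eif4ebp1 was at 4.24, 3.39 and 4.28 FPKM in Bcas2 cKO and 7.47, 4.08 and 3.13 FPKM in control, where library 1 stood above the rest, and was not called (log2 fold change -0.18, 95% interval -0.78 to 0.41). Eif4ebp3 was at 1.33, 1.15 and 2.03 FPKM in Bcas2 cKO and 1.61, 1.99 and 1.46 FPKM in control; its annotated gene lies wholly inside Ankhd1 on the same strand, so its reads are uncertain.

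**Figure D4:**
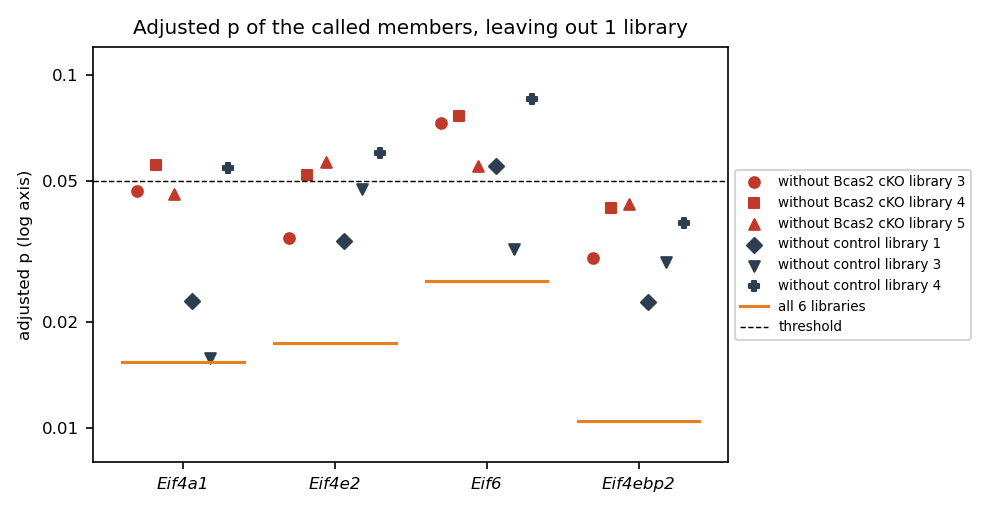
Adjusted p from limma (log axis) of the 4 called members with all 6 libraries (orange line) and with 1 library left out (symbols); the dashed line marks 0.05. All symbols of Eif4ebp2 lie below the line, whereas Eif6 lies below it in 1 of 6 fits, Eif4e2 in 3 and Eif4a1 in 4.

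The scaffold genes were not called. Eif4g2, also known as DAP5, encodes a scaffold that lacks the eIF4E-binding site and serves cap-independent initiation. It was at 55.8, 58.2 and 54.9 FPKM in Bcas2 cKO, against 63.5, 72.9 and 73.8 FPKM in control. The groups did not overlap, and the log2 fold change of -0.31 (SE 0.09) missed the threshold (limma adjusted p 0.062). Eif4g1, the scaffold of canonical eIF4F, was at 63.8 ± 6.32 FPKM in Bcas2 cKO and 59.9 ± 2.85 FPKM in control, and Eif4g3 at 15.3 ± 1.38 FPKM in Bcas2 cKO and 17.8 ± 1.85 FPKM in control (SD, n = 3 each). The Eif4g1 to Eif4g2 ratio was 1.13 ± 0.077 in Bcas2 cKO and 0.859 ± 0.097 in control, without overlap and without a test.

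The factors that find the start codon, and the genes grouped with them here, did not pass the test. Eif1, which guards start codon choice, was the member of highest level, with 169.9, 192.7 and 175.7 FPKM in Bcas2 cKO and 135.3, 188.8 and 146.8 FPKM in control. The groups overlapped (log2 fold change 0.20, 95% interval -0.13 to 0.54, limma adjusted p 0.37). Its paralog Eif1b was at 34.1, 36.26 and 36.2 FPKM in Bcas2 cKO and 36.32, 49.3 and 40.1 FPKM in control, lower in each Bcas2 cKO library by a margin within the spread of the controls (limma adjusted p 0.25). Eif1a, on chromosome 18, was at 21.0 ± 2.30 FPKM in Bcas2 cKO and 17.0 ± 3.23 FPKM in control (log2 fold change 0.30, limma adjusted p 0.23), and Eif1ad, an eIF1A-domain protein, had a log2 fold change of 0.24 (limma adjusted p 0.22). Eif5, the GTPase activator of eIF2, and Eif2a and Eif2d, which can deliver initiator tRNA in other ways, had log2 fold changes of 0.13, 0.07 and -0.09. Eif2d did not overlap between groups, at 5.05 ± 0.076 FPKM in Bcas2 cKO and 5.42 ± 0.207 FPKM in control.

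The eIF2 branch showed no call among the 10 genes taken in by the rule. The rule takes autosomal genes and leaves out 1 kinase gene, so the branch is covered in part. The eIF2 subunit genes Eif2s1 and Eif2s2 had log2 fold changes of 0.08 and -0.10, and Eif2s2 was at 9.25 ± 1.07 FPKM in Bcas2 cKO and 9.99 ± 1.51 FPKM in control (SD, n = 3 each). The 5 genes of eIF2B, the exchange factor that recharges eIF2, lay between -0.01 and 0.18. Eif2b2 had the highest level of these, 19.8 ± 1.19 FPKM in Bcas2 cKO and 17.6 ± 0.932 FPKM in control, and Eif2b3 the largest fold change (0.18, limma adjusted p 0.26). Of the 3 kinase genes among the members, Eif2ak1 (the heme-regulated HRI) was at 6.69 ± 0.422 FPKM in Bcas2 cKO and 7.12 ± 0.265 FPKM in control. Eif2ak2 (the double-stranded RNA sensor PKR) was at 5.51 ± 0.399 FPKM in Bcas2 cKO and 4.45 ± 0.950 FPKM in control (log2 fold change 0.27, limma adjusted p 0.22). Eif2ak4 (the amino acid sensor GCN2) was at 4.58 ± 0.162 FPKM in Bcas2 cKO and 4.14 ± 0.172 FPKM in control, without overlap (log2 fold change 0.12, limma adjusted p 0.31).

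The 14 genes of eIF3, the largest initiation complex, which binds the small subunit and bridges it to eIF4G, had small fold changes. None was called, and no subunit was free of overlap between groups. Leaving aside Eif3j1 and Eif3j2, the log2 fold changes of the other 12 lay between -0.18 and 0.08. The outermost ends of their 95% intervals were -0.46 (Eif3e) and 0.38 (Eif3m), and the narrowest interval was that of Eif3l (-0.28 to 0.07). For each gene, changes within its own interval cannot be told from none here. Their mean levels ran over a range of 8.68 to 62.3 FPKM. Eif3a, the scaffold subunit and the highest, was at 60.1, 73.0 and 55.0 FPKM in Bcas2 cKO and 57.1, 63.3 and 65.5 FPKM in control. Eif3e, with the largest fold change (-0.18, limma adjusted p 0.33), was at 9.41 ± 0.282 FPKM in Bcas2 cKO and 10.9 ± 1.81 FPKM in control (SD, n = 3 each).

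Eif3j1 and Eif3j2, copies of the loosely bound j subunit that share sequence, varied between libraries of the same group. Of the 50-base words of Eif3j2, 90.8% occur in Eif3j1, and of those of Eif3j1, 36.6% occur in Eif3j2. Eif3j2 held 24, 58 and 159 reads in Bcas2 cKO libraries 3, 4 and 5 and 197, 26 and 41 reads in control libraries 1, 3 and 4. Bcas2 cKO library 5 and control library 1, 1 of each group, were the high ones, and these 2 libraries were also the lowest within their groups for Eif3j1, with 485 and 406 reads. The neighbouring pseudogene Gm3650, which shares 8.11% of the words of Eif3j1, held 28, 0 and 45 reads in Bcas2 cKO and 69, 1 and 0 reads in control, also highest in those 2 libraries. In Bcas2 cKO library 4 both copies had more reads than in library 3; an exchange of reads between the copies was not tested. Summed over both copies the reads were 710, 831 and 644 in Bcas2 cKO and 603, 657 and 635 in control. Neither copy was called, and the split between them is uncertain in each library.

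The late-acting factors gave 1 call. Eif6 keeps the large ribosomal subunit from joining too early and also acts in its assembly. Eif6 (ENSMUSG00000027613, chromosome 2, 155819832 to 155826925, minus strand) was at 17.2, 19.8 and 16.7 FPKM in Bcas2 cKO libraries 3, 4 and 5, against 12.04, 14.1 and 12.3 FPKM in control libraries 1, 3 and 4. All Bcas2 cKO libraries lay above all control libraries. Its log2 fold change was 0.45 (SE 0.10, limma adjusted p 0.026). The call was lost in 5 of the 6 fits with a library removed (limma adjusted p 0.055 to 0.085), all but the one without control library 3 (0.032), and also with no filter on low values (0.058). The antisense gene Gm16098 overlaps the 5′ end of Eif6 over 138 bases and held 13, 17 and 6 reads in Bcas2 cKO and 4, 1 and 2 reads in control. Whether reads were counted by strand is not given. Eif5a, the hypusine-carrying factor that helps stalled ribosomes, was at 98.6, 111.2 and 91.3 FPKM in Bcas2 cKO and 76.1, 92.8 and 82.2 FPKM in control, with overlap (log2 fold change 0.26, limma adjusted p 0.18). Eif5b, which joins the subunits, had a log2 fold change of -0.01 and Eif5a2, the low paralog of Eif5a, -0.04.

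Genes around initiation that do not carry the Eif name were read from 3 lists. Of 25 genes of signalling to initiation 3 rose and 1 fell, of 23 partners of the factors 1 rose and 2 fell, and of 13 genes of elongation, termination and recycling none passed the test. The 4 of 25 and 3 of 23 called are shares near the 14.5% of all tested genes, so these counts are not a result about the lists. The median log2 fold changes were -0.06, -0.03 and -0.05, against -0.03 over all tested genes.

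Mtor, the kinase that inactivates the 4E-BPs, rose to 3.2 times its control level by mean FPKM. Mtor (ENSMUSG00000028991, chromosome 4) was at 18.3, 17.7 and 23.4 FPKM in Bcas2 cKO libraries 3, 4 and 5, against 6.62, 5.55 and 6.34 FPKM in control libraries 1, 3 and 4. No library of one group came near the other. The difference was 1.53 on the log2(FPKM + 1) scale (SE 0.12, limma adjusted p 0.0018), and each of the 6 fits with a library removed kept the call (adjusted p 0.0046 to 0.011). Angptl7, which lies inside Mtor on the opposite strand, held 484, 478 and 149 reads in Bcas2 cKO and 161, 1136 and 1784 reads in control, against 3348, 3149 and 4079 reads of Mtor in Bcas2 cKO and 1062, 758 and 941 in control. Tsc1, a subunit of the complex that restrains mTOR, fell to 6.44 ± 0.477 FPKM in Bcas2 cKO, against 8.89 ± 1.12 FPKM in control (log2 fold change -0.41, limma adjusted p 0.047), a call that was kept in 1 of the 6 such fits, the one without control library 3, and that was lost with no filter (0.11), quantile normalization (0.061), rescaling without the hormone genes (0.057) and eBayes without trend (0.059).

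Mknk2, one of the kinases that phosphorylate eIF4E, rose to 17.2 ± 1.09 FPKM in Bcas2 cKO, against 12.6 ± 0.258 FPKM in control (log2 fold change 0.42, limma adjusted p 0.015). Ppp1r15a (GADD34), which directs dephosphorylation of eIF2 alpha, was at 98.3, 145.1 and 127.0 FPKM in Bcas2 cKO and 21.9, 44.0 and 37.99 FPKM in control, the largest log2 fold change of the list (1.84, limma adjusted p 0.0080). Of the 18 immediate early and handling response genes 15 were called higher in the same libraries, where 6.97% of all tested genes were. Atf3 (log2 fold change 2.09, limma adjusted p 0.11), Hspa1a (0.60) and Hspa1b (0.65) had positive fold changes without a call. The part of these genes in the change of Ppp1r15a was not tested. Tulp2, which overlaps Ppp1r15a on the opposite strand over 717 bases, was higher as well. Tulp2 held 123, 106 and 90 reads in Bcas2 cKO and 27, 23 and 17 in control. Ppp1r15a held 5237, 7502 and 6434 reads in Bcas2 cKO and 1021, 1746 and 1639 in control. Ddx3x, a helicase that works with eIF4F on structured leaders, rose to 83.7 ± 5.72 FPKM in Bcas2 cKO, against 58.3 ± 5.81 FPKM in control (log2 fold change 0.52, limma adjusted p 0.022). Paip2b, an inhibitor of the poly(A)-binding protein, fell to 10.97 ± 1.05 FPKM in Bcas2 cKO, against 14.7 ± 1.12 FPKM in control (log2 fold change -0.39, limma adjusted p 0.038). Cyfip2, a relative of the eIF4E-binding protein CYFIP1, fell to 36.8 ± 0.583 FPKM in Bcas2 cKO, against 50.2 ± 5.40 FPKM in control (log2 fold change -0.43, limma adjusted p 0.027), while Fndc9, which lies inside it on the opposite strand, was higher. Of the elongation list Eef1a1, which brings aminoacyl-tRNA to the ribosome, had the highest level, 1074 ± 30.8 FPKM in Bcas2 cKO and 1124 ± 170.0 FPKM in control (log2 fold change -0.05, limma adjusted p 0.85). When 1 library was left out, Mknk2 lost its call in 3 of 6 fits (without Bcas2 cKO library 3 or 5 or control library 4), Ddx3x in 4 (all but those without control library 1 or 4), Cyfip2 in 4 (all but those without control library 1 or 3) and Paip2b in 5 (all but the one without control library 1). With no filter Paip2b (limma adjusted p 0.080) and Cyfip2 (0.054) were not called, nor Paip2b by eBayes without trend (0.0501) nor Cyfip2 with quantile normalization (0.064).

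**Figure D5:**
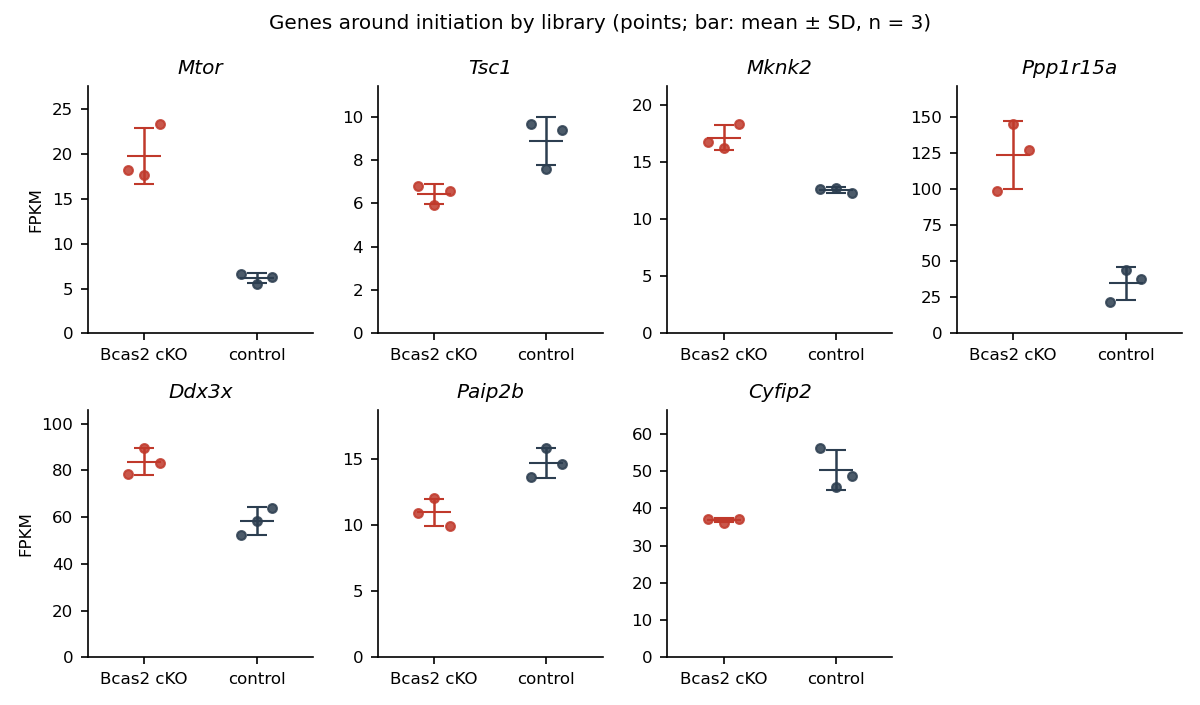
FPKM of the 7 called genes around initiation in each library (points), Bcas2 cKO left and control right, with mean ± SD (n = 3 each) as bars; every axis is linear from 0. Mtor sits at 17.7 to 23.4 FPKM in Bcas2 cKO and 5.55 to 6.62 FPKM in control, and the groups are apart in every panel.

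Promoters were found for 39 of the 51 members in the RefSeq table (GRCm38.p6), and those of the eIF4A pair and of the other called members found there are shown as the 250 bases before the annotated start, 5′ to 3′ on the gene's strand, with TGACGT, the core recognised by CREB and ATF factors, in capitals on either strand (ACGTCA where it lies on the other strand):
Eif4a1, chr11:69672424-69672673, minus strand: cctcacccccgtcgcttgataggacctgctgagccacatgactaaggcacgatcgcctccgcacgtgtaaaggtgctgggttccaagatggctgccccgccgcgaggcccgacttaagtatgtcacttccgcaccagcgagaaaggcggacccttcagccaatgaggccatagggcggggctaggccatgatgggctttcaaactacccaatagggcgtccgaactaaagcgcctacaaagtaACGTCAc
Eif4e2, chr1:87213661-87213910, plus strand: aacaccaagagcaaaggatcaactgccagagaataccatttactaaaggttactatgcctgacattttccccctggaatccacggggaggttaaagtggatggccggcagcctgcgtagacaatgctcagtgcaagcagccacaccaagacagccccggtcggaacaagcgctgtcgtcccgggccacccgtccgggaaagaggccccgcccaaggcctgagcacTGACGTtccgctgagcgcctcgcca
Eif4ebp2, chr10:61452670-61452919, minus strand: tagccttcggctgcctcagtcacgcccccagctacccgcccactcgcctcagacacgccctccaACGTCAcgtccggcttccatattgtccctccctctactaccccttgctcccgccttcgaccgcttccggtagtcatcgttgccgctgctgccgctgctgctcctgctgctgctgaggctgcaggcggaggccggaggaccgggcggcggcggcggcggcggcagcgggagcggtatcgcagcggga
Eif4a2, chr16:23107218-23107467, plus strand: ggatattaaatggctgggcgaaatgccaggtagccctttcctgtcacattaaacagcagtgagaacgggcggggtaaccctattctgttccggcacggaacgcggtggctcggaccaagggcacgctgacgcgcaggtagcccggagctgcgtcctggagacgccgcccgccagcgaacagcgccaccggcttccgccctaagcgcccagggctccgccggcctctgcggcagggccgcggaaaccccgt
TGACGT was present in Eif4a1, 7 to 2 bases before the start, in Eif4e2, 25 to 20 bases before it, and in Eif4ebp2, 186 to 181 bases before it, and these letters were not in the window of Eif4a2. Of the members with a promoter 6 of 39 held it (15.4%), against 6.56% of 27025 genes in the RefSeq table, 1 start per gene. The motif was chosen with the sequences in view, it stood in a gene that fell as well as in genes that rose, and a match is a description only. The GC box GGGCGG was in 28 of the 39 member promoters (71.8%), against 32.9% of all, the ETS core CCGGAAG in 9 (23.1%), against 7.05%, and the E-box CACGTG in 7 (17.9%), against 6.05%. The NF-Y box CCAAT was in 11 (28.2%), against 34.5%, the AP-1 motif TGANTCA in 3 (7.69%), against 6.87%, and the YY1 motif AAGATGGC in 1 (2.56%), against 1.59%. With TGACGT these are the 7 motifs searched, each on either strand. The 27025 genes were not limited to genes expressed in these libraries, whereas 50 of the 51 members were tested. The sets are therefore unlike, and these shares do not show a trait particular to initiation factor genes.

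Markers of other cells differed between the groups as well. Among all tested genes 6.97% were called higher and 7.55% lower. Of the acinar list 9 of 19 tested genes rose and none fell, of the macrophage list 5 of 8 rose and of the ductal list 2 of 7 rose, with none lower; counts as small as the last say little beside that background. Cd68, the macrophage gene with the largest rise, lies next to Eif4a1 on the same strand (chromosome 11, 69664213 to 69666153). It held 113, 138 and 123 reads in Bcas2 cKO and 37, 43 and 36 in control. Whether its reads are independent of Eif4a1 was not tested. The macrophage markers summed to 112 to 139 FPKM in Bcas2 cKO and 89.4 to 109 FPKM in control, and the ductal markers to 443 to 590 FPKM in Bcas2 cKO and 201 to 244 FPKM in control. Of the alpha, delta and PP list 2 of 8 rose, and no endothelial or stellate marker passed the test. None of the markers listed was at 0 in every library. Of the 10 beta cell markers 3 were called lower (Slc2a2, Ucn3 and Slc30a8) and none higher. Mafa lay higher in every Bcas2 cKO library, at 349 ± 84.1 FPKM against 228 ± 37.1 FPKM in control (SD, n = 3 each). It was not called (limma adjusted p 0.090). The groups overlapped for Nkx6-1, Pdx1 and G6pc2. The acinar sum was highest in Bcas2 cKO library 5, and it was higher in Bcas2 cKO libraries 3 and 4 (13116 and 18814 FPKM) than in any control library too. Without library 5 the calls of Eif4a1 (limma adjusted p 0.046) and Eif4ebp2 (0.043) were kept and those of Eif4e2 (0.057) and Eif6 (0.055) were lost. The part of these shifts in the changes of Eif4a1, Eif4e2, Eif6, Eif4ebp2 and Mtor was not tested.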

How the data were processed

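RNA of 6 mouse islet libraries was analysed from a table of FPKM per gene that the authors deposited, with gene length, coordinates and biotype per the file headers. Trizol extraction and a SMARTER library kit were used, per the labels' protocols, and the build was GRCm38 (mm10), per the submitters' processing notes. The aligner and the counter: not given in the sources used here. Reads per gene were recovered from FPKM and gene length; 100% of values came out whole within 0.01 of a read. Columns were matched to samples by name, and Bcas2 cKO library 5 to its group.

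The 13723 genes whose mean reached 1 FPKM were tested on log2(FPKM + 1), a scale that understates the change of low genes, with limma 3.58.1 (eBayes with trend) in R 4.3.3 and Benjamini-Hochberg adjustment over all of them, without covariates. The alternatives were a pseudocount of 0.1, no filter or a mean of at least 5 FPKM, 3 other scalings, eBayes without trend or robust, library weights, voom on the recovered reads, a replicate block and leaving out each library. Genes named are the called members, the highest and the most changed member of each role, and of each related list up to 4 called genes or else the highest; those named for lack of overlap between groups, as a copy or as a role were chosen after their values were seen. The members and lists were chosen with earlier results of these data known. Shared 50-base words and coding stretches (longest open reading frame holding the motif) came from GENCODE M21 transcripts, promoters from RefSeq. Tables and figures were made with pandas 2.3.3, numpy 2.4.6, matplotlib 3.10.9 and scipy 1.17.1 under Python 3.11.15.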

Additional observations from a re-analysis of the deposited data

How the results depend on the processing

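The members called higher were 2 to 4, and those called lower 1 or 2, under the 10 settings that changed the pseudocount, the filter, the scaling, the variance model, the library weights or the unit. The 2 lower ones occurred with quantile normalization, library weights and voom on recovered reads, which added Eif4a2 in the first case and Eif4g2 in the others. Leaving out 1 library gave 0 to 4 higher members (0 without Bcas2 cKO library 4 or control library 4, 1 without Bcas2 cKO library 5), 1 to 3 lower members (3 without control library 1) and 878 to 1950 calls among all genes, against 1993 with all libraries. All genes gave 1144 calls with no filter. The numbers 3 and 4 occur in both groups of the table; the correlation of deviations from the group means was -0.15 for number 3 and 0.05 for number 4, and nothing shows that the numbers pair the libraries. A replicate block on these 2 numbers, which uses 4 libraries and leaves 1 residual degree of freedom, gave 0 higher and 0 lower members and 527 calls among all genes, with Mtor and Ppp1r15a still past the threshold. The log2 fold change of Bcas2 passed the threshold with voom (-0.45, adjusted p 0.047), and it lay between -0.52 and -0.27 when a library was left out, past the threshold without control library 1 (adjusted p 0.049). The members' median log2 fold change lay between -0.04 and 0.06 under all settings run, within the spread between control libraries (SD 0.093). The 11 called members and related genes kept their direction under every setting run. With 3 libraries a group a missed threshold does not show equal levels, and the cause of the lost calls was not tested.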
